A study of Saccharomyces cerevisiae with 32 samples.

Results

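The GID complex of *Saccharomyces cerevisiae* is described here by 9 genes, which were taken by name from a table of 7036 genes: *VID30* (YGL227W, also GID1), *GID8* (YMR135C), *RMD5* (YDR255C, also GID2), *FYV10* (YIL097W, also GID9), *VID28* (YIL017C, also GID5), *GID7* (YCL039W), *VID24* (YBR105C, also GID4), *GID10* (YGR066C) and *GID11* (YLR149C). The set was chosen by its function and by the *GID11* RNA-Seq values, which were high in the strain without *STM1*. The *GID11* RNA-Seq values and *GID11* ribosome occupancy of that strain are therefore given as a description, with no test. RNA-Seq of poly(A) RNA and Ribo-Seq of ribosome-protected fragments (footprints) were made from portions of the same lysates of 4 strains, with 4 replicates of each strain and 32 libraries in all. The strains were the *wt* haploid BY4742 (*MATα his3Δ1 leu2Δ0 lys2Δ0 ura3Δ0*) and its derivatives from the Yeast Gene Deletion Collection lacking *TMA46* (*tma46Δ*), *YGR054W*, which encodes eIF2A (*eif2aΔ*), or *STM1* (*stm1Δ*). All of them carry the same auxotrophic alleles, and the collection strains carry a KanMX cassette in place of the deleted reading frame. The sources used here do not say how far the replicates of a strain were independent, so the p-values measure the spread between these libraries, which may be technical. All strains were grown to the exponential phase in glucose medium and, per the labels, treated with cycloheximide just before they were collected on filters.

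GID is a ubiquitin ligase known for the switch from a non-fermentable carbon source to glucose. When glucose returns, it marks gluconeogenic enzymes such as Fbp1, Pck1, Mdh2 and Icl1 for degradation by the proteasome. Vid30 and Gid8 form the scaffold, Rmd5 and Fyv10 are the RING pair that works with the E2 enzyme Ubc8, Vid28 holds the exchangeable substrate receptors Vid24, Gid10 and Gid11, and Gid7 joins complexes into a larger assembly.

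The libraries held 4215500 to 6717295 RNA-Seq reads and 1457024 to 4122370 Ribo-Seq reads counted on the sense strand of genes. The reads of the deleted genes followed the labels. *STM1* had 0 to 2 RNA-Seq and 2 to 23 Ribo-Seq reads in *stm1Δ* against at least 10229 and 4583 elsewhere, while *TMA46* and *YGR054W* had at most 7 reads in any library of their own deletion strain. The libraries came in 7 batches, as the labels number them. *wt* replicates 1 to 4 were batches 1, 2, 3 and 4, and *tma46Δ* replicates were batches 1, 2, 3 and 5. *eif2aΔ* replicates were batches 3, 4, 5 and 6, and *stm1Δ* replicates were batches 6, 7, 7 and 7. No *stm1Δ* replicate shared a batch with *wt*. With a batch term, the *stm1Δ* contrast therefore rests on *stm1Δ* replicate 1, set against *eif2aΔ* replicate 4 of batch 6, and strain and batch 7 cannot be told apart for the others.

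Levels are given in CPM, the reads of a gene scaled to the sum of all reads counted in the library. A filter asked for 10 CPM in no fewer than 4 libraries of each assay, and 7 of the 9 genes passed it, as did 4625 genes in all. *GID11*, which reached 10 CPM in 11 RNA-Seq libraries and 1 Ribo-Seq library, and *GID10*, which did so in 0 and 0, did not pass, and their fold changes come from a fit with no filter. All 9 genes were found in RefSeq (build R64), each with 1 coding exon, and none overlapped another annotated gene.

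The start of *GID11* is shown because the gene next to it was deleted in *stm1Δ*. *GID11* lies on the minus strand of chromosome XII at 437631 to 439823, and *STM1* lies on the plus strand at 440467 to 441288. They are transcribed away from each other, with 643 bases between the coding regions. The RefSeq sequence at XII:439774-440073, minus strand, R64, holds the 250 bases before the *GID11* start codon and the first 50 coding bases, and none of it lies in the *STM1* reading frame. Capitals mark an AGGGG, the core of the stress response element bound by Msn2 and Msn4.
GID11: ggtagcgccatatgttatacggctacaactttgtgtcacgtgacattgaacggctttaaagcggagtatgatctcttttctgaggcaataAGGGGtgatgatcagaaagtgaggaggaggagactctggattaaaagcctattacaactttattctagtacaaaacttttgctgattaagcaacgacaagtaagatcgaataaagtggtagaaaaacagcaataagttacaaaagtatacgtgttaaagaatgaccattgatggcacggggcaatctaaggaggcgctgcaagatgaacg

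The same element was looked for as AGGGG on either strand (AGGGG or CCCCT) in windows of this length at all 9 genes. It was present at 7 of them (77.8%), and in 1297 of 6001 promoters of the genome (21.6%). *VID24* and *GID10* had none, which says only that these letters are not in those windows. The matches are shown with 10 bases on each side, 5′ to 3′ on the strand of the gene, with the element in capitals, because 7 of the 9 genes have one.
GID11, 160 bases before the start codon: tgaggcaataAGGGGtgatgatcag
VID30, 132 bases before: cgagcctttcAGGGGagggaactga
GID8, 62 bases before: ttgcaagcaaAGGGGcagtagagac
RMD5, 81 bases before: ctctattattAGGGGtaaagttcaa
FYV10, 75 bases before: ggcgaagagaAGGGGgtggttaaat
VID28, 152 bases before: attagactgaAGGGGcgcgaactaa
GID7, 27 bases before: aacacttccaAGGGGgcgtactact
The letters TATAAA, on either strand (TATAAA or TTTATA) and with overlapping matches counted, were likewise found at 7 of the 9 genes (77.8%), not at *GID11* and *GID8*, and in 45.2% of the same 6001 windows.

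The substrate receptor *GID11* had several times more mRNA in *stm1Δ* than in the other strains. RNA-Seq gave 70.8, 59.2, 82.4 and 78.5 CPM in *stm1Δ* replicates 1 to 4. The *wt* libraries gave 7.75, 15.8, 13.5 and 10.9 CPM. The values of *tma46Δ* were 7.66, 9.05, 10.7 and 8.30 CPM, and those of *eif2aΔ* were 12.2, 12.3, 18.03 and 8.07 CPM. Every *stm1Δ* library lay above all 12 others, and the replicate in batch 6 was as high as those in batch 7. The mean in *stm1Δ* was 6.07 times that of *wt*. Within batch 6, *stm1Δ* had 70.8 CPM and *eif2aΔ* 8.07 CPM. In the fit with batch, the log2 difference from *wt* was 3.02 (SE 0.37), and without the batch term it was 2.45 (SE 0.18).

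Footprints on *GID11* did not follow the mRNA. Ribo-Seq gave 5.35, 3.04, 3.17 and 4.80 CPM in *stm1Δ* and 5.52, 9.46, 8.19 and 5.50 CPM in *wt*. The remaining libraries ranged from 4.80 to 8.11 CPM in *tma46Δ* and from 5.17 to 13.0 CPM in *eif2aΔ*. All 4 *stm1Δ* libraries were below the 4 of *wt*, but they overlapped the other strains. Of the genes past the filter, which *GID11* did not pass, 3.94% were separated from *wt* in this direction. These values rest on 7 to 17 reads in *stm1Δ* and on 17 to 39 reads in *wt*. The mean was 4.09 ± 1.16 CPM (SD, n = 4) in *stm1Δ* and 7.17 ± 1.98 CPM (SD, n = 4) in *wt*, a ratio of 0.571. A two-sided exact permutation test gave p = 0.0286, the smallest that 4 against 4 libraries allow, which any full separation of the groups gives. Against all 12 other libraries, with a mean of 7.16 ± 2.54 CPM (SD), the exact permutation p was 0.00879. These tests treat the libraries as exchangeable and leave out the batch, so their p-values cover strain and batch together. With the batch term, the log2 difference in footprints was 0.08 (SE 0.66, FDR 1.0, edgeR), with a 95% interval of −1.21 to 1.37. Within batch 6, *stm1Δ* replicate 1 had 5.35 CPM and *eif2aΔ* replicate 4 had 5.90 CPM. The same fit without the batch term gave −0.91 (SE 0.31, FDR 0.126, edgeR). The lower footprint level thus passed the permutation tests of CPM and neither edgeR fit. In replicates 2 to 4 the deletion and batch 7 cannot be told apart.

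**Figure D1:**
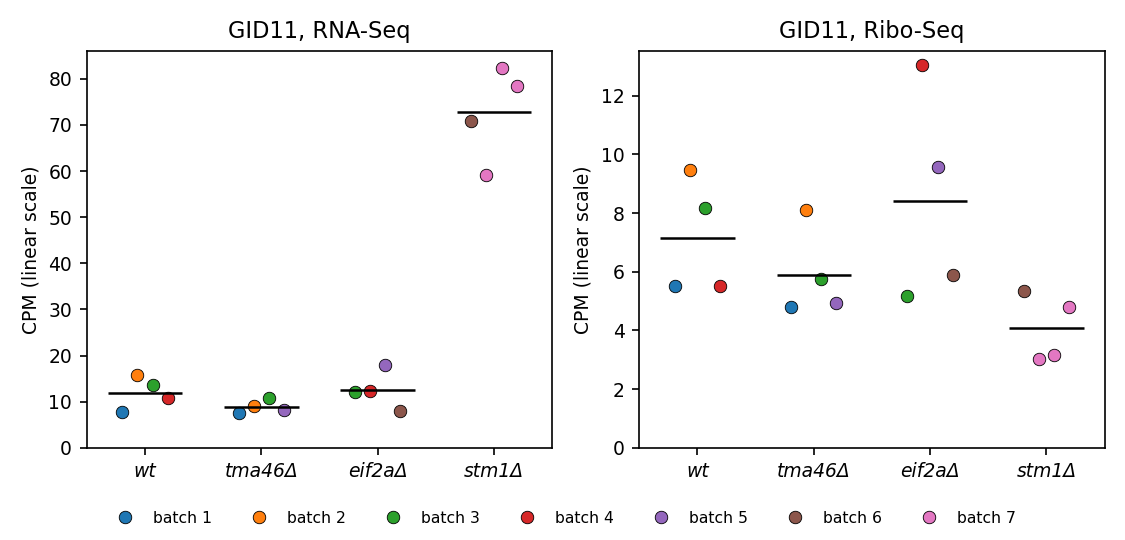
*GID11* in every library, as RNA-Seq CPM (left) and Ribo-Seq CPM (right) on linear axes of different range; points are libraries coloured by batch and lines are the means of 4. The RNA-Seq points of *stm1Δ* lie at 59.2 to 82.4 CPM and those of the other 12 libraries at 7.66 to 18.03 CPM, whereas the Ribo-Seq values of *stm1Δ*, 3.04 to 5.35 CPM, lie at the low end of the range.

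Ribosome occupancy (RO), the Ribo-Seq CPM of a gene over its RNA-Seq CPM for the same replicate, put these values together. For *GID11* the log2 RO was −0.73 ± 0.20 in *wt*, −0.62 ± 0.32 in *tma46Δ*, −0.63 ± 0.58 in *eif2aΔ* and −4.18 ± 0.41 in *stm1Δ* (SD, n = 4 for each). The mean value of *stm1Δ* corresponds to 0.0550 footprint CPM for each mRNA CPM, against 0.601 in *wt*. The 4 replicates of *stm1Δ* lay between −4.70 and −3.73, and the lowest value in the other strains was −1.24. The interaction of strain and assay in the fit was −3.02 (SE 0.75). On the scale of all genes past the filter, *GID11* stood at percentile 35.7 in *wt* and 0.0432 in *stm1Δ*.

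None of the 8 other genes around *STM1* was called in *stm1Δ* in either assay. Of the genes past the filter, 0.0649% were called in RNA-Seq and 0.411% in Ribo-Seq, so this count says little about the neighbours. *PCD1* and *YLR152C* did not pass the filter and were read from the fit without it, where 1.37% and 0.256% were called. Mean RNA-Seq CPM in *stm1Δ* over *wt* was 1.35 for *PEP3*, a vacuolar sorting gene on the other side of *GID11* with 233 bases between them, and 1.08 for *PCD1*, which lies beyond *STM1*. It was 1.22 for *RMP1*, 0.937 for *SPE4*, 1.06 for *SMD3*, 1.16 for *YLR152C*, 0.840 for *ACS2* and 0.803 for *RNH203*. The lowest RNA-Seq FDR was 0.107, for *SPE4*, with a log2 difference of −0.90 (SE 0.28), and *PEP3* had 0.71 (SE 0.34, FDR 0.246). The *PEP3* libraries of *stm1Δ* (36.3 to 64.1 CPM) overlapped those of *wt* (38.9 to 42.4 CPM). Footprint ratios of the 8 genes were between 0.673 (*PCD1*) and 1.204 (*YLR152C*). For *ACS2*, an acetyl-CoA synthetase gene, all 4 *stm1Δ* libraries lay below those of *wt* in RNA-Seq (312 to 329 against 356 to 406 CPM), as 4.54% of the genes did, and below all 12 others in Ribo-Seq (486 to 579 against 596 to 734 CPM), as 1.25% did. Its log2 differences were −0.39 (SE 0.18, FDR 0.224) and −0.30 (SE 0.17, FDR 0.389). *PCD1* footprints (6.69 to 7.61 CPM, 10 to 24 reads) were also below those of *wt* (8.49 to 13.3 CPM), as were 3.94% of the genes past the filter. Unstranded counts gave a *GID11* ratio of 4.84, compared with 6.07 on the sense strand, and reads on the opposite strand of *GID11* came to between 1.29 and 2.90 CPM for *stm1Δ*, with a highest value of 4.67 CPM elsewhere.

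**Figure D2:**
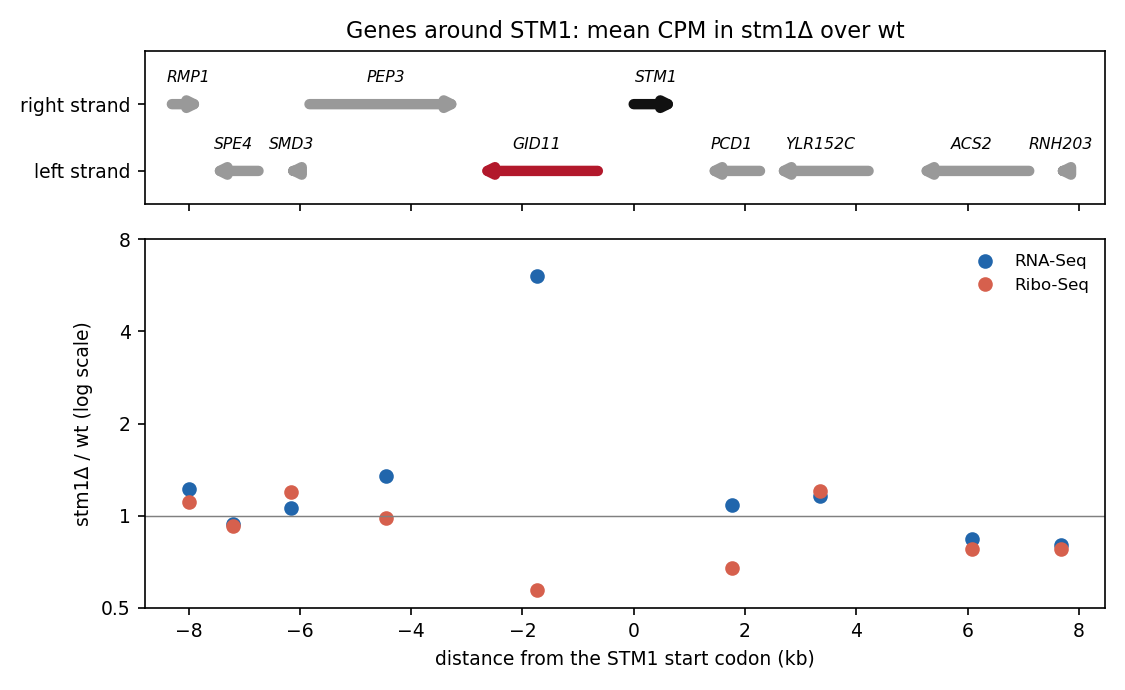
Genes around *STM1*, drawn to scale as arrows in the direction of transcription (top), and the ratio of mean CPM in *stm1Δ* over *wt* at the middle of each gene on a log axis (bottom), for RNA-Seq and Ribo-Seq, against distance from the *STM1* start codon in kb. *GID11* stands at 6.07 for RNA-Seq and 0.571 for Ribo-Seq, and the RNA-Seq ratios of its 8 neighbours lie between 0.803 and 1.35; *STM1* itself has no point.

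The pattern was looked for in the whole table. Among 5174 genes at 10 CPM in at least 4 RNA-Seq libraries, 255 (4.93%) had all 4 *stm1Δ* libraries above the other 12. Ranked by the log2 gap between the lowest *stm1Δ* library and the highest other library over the 16 libraries, *GID11* had 1.72, which is given as a description because these values led to the choice of the genes. The genes ranked next to it were *ERV46*, a cargo receptor of the early secretory pathway, with 0.26, the sterol transporter *AUS1* with 0.26, *DSC2*, a subunit of a Golgi ubiquitin ligase, with 0.26, *PEX27*, a peroxisomal gene, with 0.25, and the transcriptional repressor *XBP1* with 0.24. In footprints, *ERV46* (180 to 218 CPM against 141 to 191), *DSC2* (17.8 to 28.9 against 11.99 to 23.4), *AUS1* (8.21 to 45.3 against 6.16 to 12.7), *PEX27* (3.43 to 5.03 against 1.24 to 8.49) and *XBP1* (5.17 to 15.8 against 3.57 to 11.98) overlapped the other strains.

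In *wt*, the levels of the 9 genes were compared per kb of coding length. In RNA-Seq, *GID8* (56.2 ± 1.70 CPM per kb) and the receptor *VID24* (52.2 ± 4.03) were highest and overlapped (SD, n = 4). *GID7* followed with 25.7 ± 3.68, *VID28* with 15.3 ± 0.91, *VID30* with 13.2 ± 0.70, *RMD5* with 11.7 ± 0.92 and *FYV10* with 9.85 ± 0.64 CPM per kb. Of these neighbours in the order, *VID30* and *RMD5* overlapped. The receptors *GID11* (5.47 ± 1.58) and *GID10* (1.201 ± 0.16 CPM per kb) came last. *GID8* and *VID24* stood at percentiles 49.1 and 46.2 of the genes past the filter, and *VID28*, *VID30*, *RMD5* and *FYV10* stood below percentile 5.70.

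In footprints the order changed. *VID24* was alone at the top with 30.6 ± 2.52 CPM per kb. *GID8* (14.9 ± 3.02), *GID7* (11.1 ± 1.63), *VID30* (10.5 ± 1.61), *RMD5* (7.01 ± 2.64) and *FYV10* (6.23 ± 0.54 CPM per kb) followed, each overlapping the next. *VID28* (3.59 ± 1.15) and *GID11* (3.27 ± 0.90 CPM per kb) also overlapped each other and lay below *FYV10*. In *stm1Δ* the mRNA of *GID11* was at rank 3 with 33.2 ± 4.66 CPM per kb, overlapping *GID7* at 30.3 ± 1.799, while its footprints were at rank 8 with 1.87 ± 0.53 CPM per kb.

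**Figure D3:**
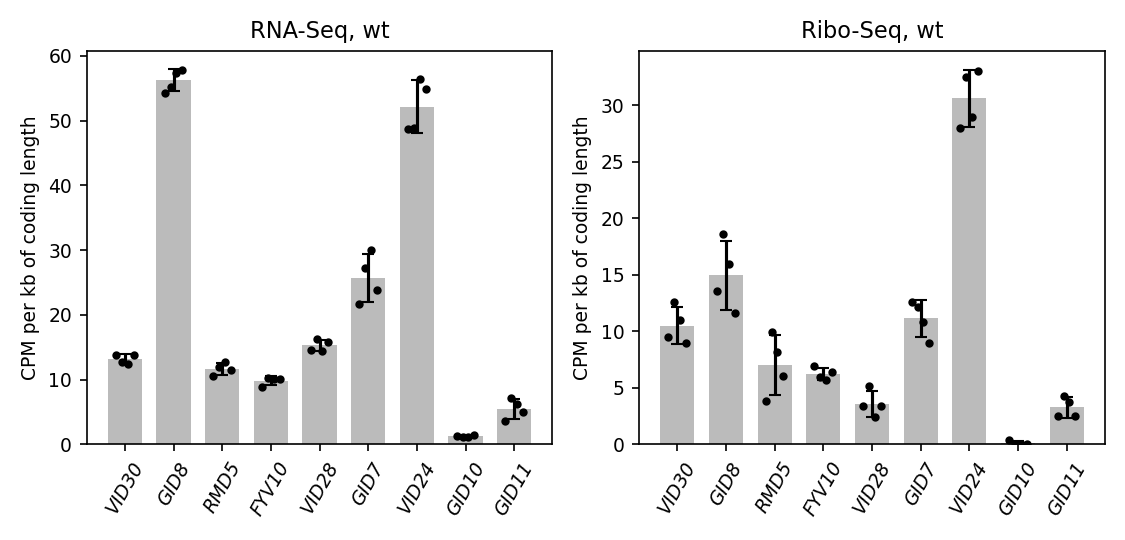
Level of each GID gene in *wt*, in CPM per kb of coding length, for RNA-Seq (left) and Ribo-Seq (right); bars are means, error bars are SD and points are the 4 libraries. *GID8* and *VID24* are close in RNA-Seq (56.2 and 52.2) and apart in Ribo-Seq (14.9 and 30.6), and *GID10* is lowest in both.

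*GID8* and *VID28* had low RO in every strain. For the scaffold gene *GID8* the mean log2 RO was −1.93 in *wt*, −1.84 in *tma46Δ*, −1.86 in *eif2aΔ* and −1.94 in *stm1Δ*, with SDs of 0.14 to 0.31 (n = 4). For the receptor adaptor *VID28* it was −2.14 in *wt*, −2.03 in *tma46Δ*, −2.41 in *eif2aΔ* and −2.35 in *stm1Δ*, with SDs of 0.18 to 0.57. The median over the genes past the filter was −0.50 in *wt*. *GID8* thus stood between percentiles 3.74 and 5.23 and *VID28* between 1.51 and 2.92. In *wt* the RING pair had −0.82 ± 0.50 (*RMD5*) and −0.66 ± 0.21 (*FYV10*), and *VID24* and *VID30* had −0.77 ± 0.16 and −0.34 ± 0.28. *GID7* had −1.21 ± 0.31 in *wt* and −1.73 ± 0.24 in *stm1Δ*. With batch in the fit, the *GID7* difference had the other sign, 0.43 (SE 0.39, FDR 0.952), and without it −0.45 (SE 0.18, FDR 0.513).

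**Figure D4:**
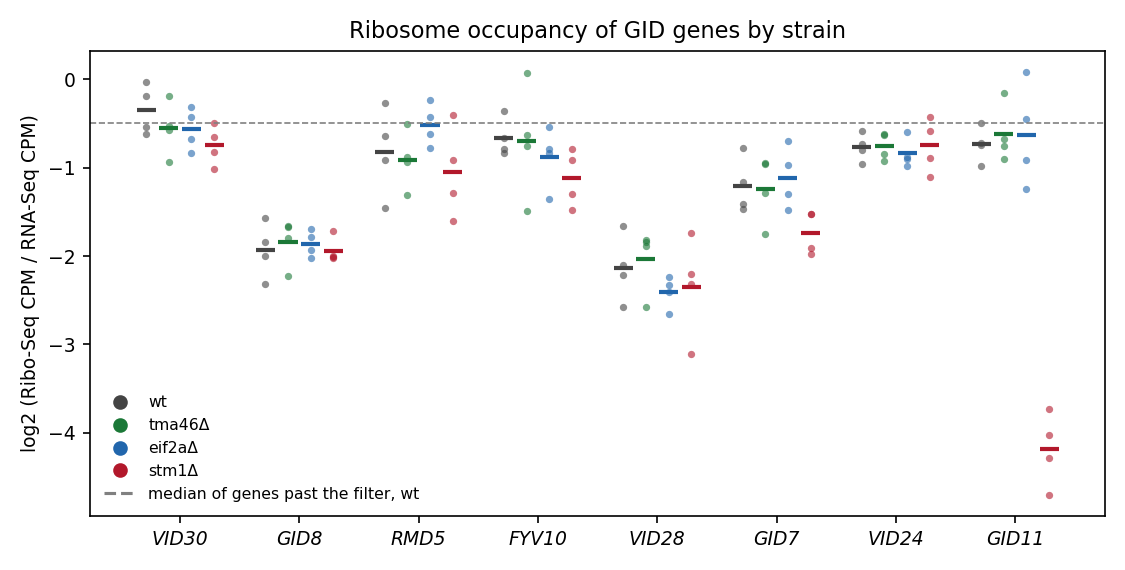
log2 of Ribo-Seq CPM over RNA-Seq CPM for 8 GID genes in each replicate of the 4 strains; points are replicates, bars are means of 4 and the dashed line is the median of the genes past the filter in *wt*. *GID8* and *VID28* are near −2 in all strains, and *GID11* is at −4.18 in *stm1Δ* and between −0.73 and −0.62 in the others; *GID10* is left out because most of its libraries have 0 to 1 footprints.

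No GID gene passed FDR < 0.05 in the main test (edgeR's quasi-likelihood test with batch and strain) in any of the 9 comparisons with *wt*, where *GID11* was not tested in *stm1Δ* RNA-Seq and RO. In *tma46Δ*, 0 of 9 genes were called at each of the levels (mRNA, footprints, RO), where 0.0216%, 0.0216% and 0% of the 4625 genes were called. In *eif2aΔ* it was 0 of 9 in each, against a background of 0.454%, 1.84% and 0.0432%. In *stm1Δ* it was 0 of 8 for mRNA, 0 of 9 for footprints and 0 of 8 for RO, against 0.0649%, 0.411% and 0%. *GID10* and *GID11* were read against the fit with no filter, where the shares called were 0.0149%, 0.015% and 0% in *tma46Δ*, 0.851%, 1.5% and 0.029% in *eif2aΔ*, and 1.37%, 0.256% and 0% in *stm1Δ*. At an unadjusted p below 0.05 there were 1, 0 and 0 genes in *tma46Δ*, 2, 2 and 1 in *eif2aΔ*, and 3, 0 and 0 in *stm1Δ*. Of the 4625 genes past the filter, 1.62%, 3.68% and 1.3% were under that p in *tma46Δ*, 13.7%, 14.7% and 3.31% in *eif2aΔ*, and 21.8%, 15.6% and 5.51% in *stm1Δ*. In the fit with no filter, used for *GID10* and *GID11*, the shares in *tma46Δ* were 2.05%, 2.95% and 1.31%. They were 12.3%, 12% and 2.96% in *eif2aΔ*, and 18%, 12.3% and 4.56% in *stm1Δ*. In *stm1Δ* the median SE of the 7 genes past the filter was 0.30 for mRNA, 0.39 for footprints and 0.53 for RO on the log2 scale. DESeq2 called 0 of the 7 genes past the filter in every comparison, but gave no adjusted p for 4 of them in *eif2aΔ* RNA-Seq, for 3 in *eif2aΔ* Ribo-Seq and for all 7 in both assays of *stm1Δ*.

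**Figure D5:**
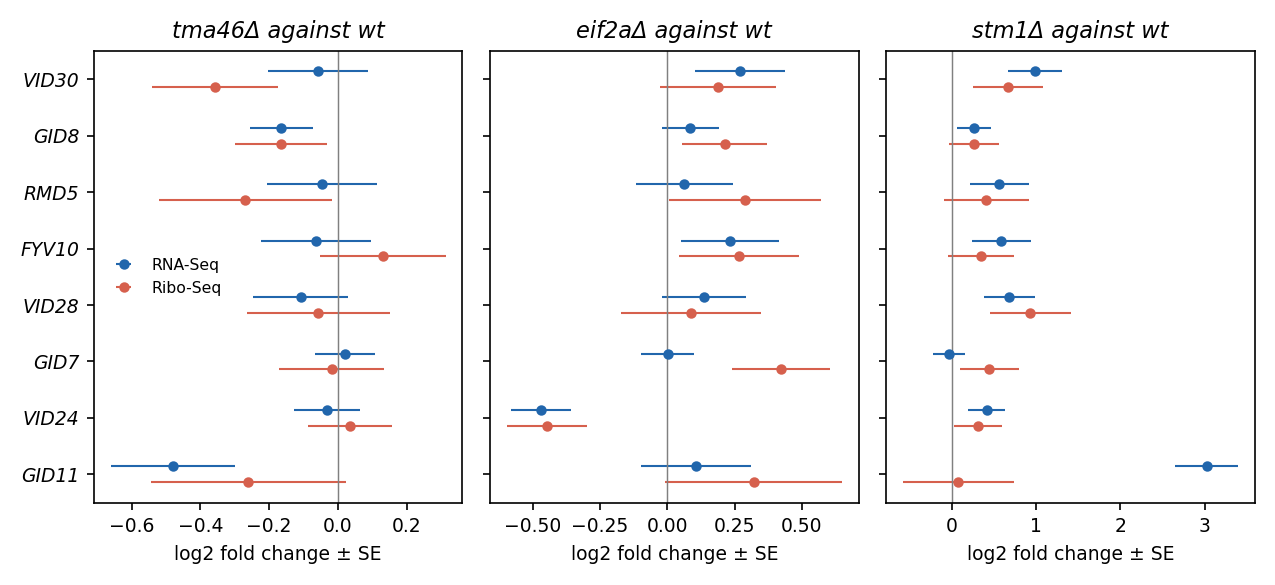
log2 fold change against *wt* of 8 GID genes in *tma46Δ*, *eif2aΔ* and *stm1Δ* for RNA-Seq and Ribo-Seq, from the fit with batch; bars are ± SE, the horizontal axes have different ranges, and *GID10* is left out for its low counts. *VID24* lies below 0 in both assays of *eif2aΔ* (−0.47 and −0.45), and *GID11* stands at 3.02 in *stm1Δ* RNA-Seq but at 0.08 in Ribo-Seq.

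Separation of the 4 libraries of a strain from the 4 of *wt* was counted for the 7 genes past the filter. In *tma46Δ* it was 0 higher and 1 lower for mRNA, against 0.714% and 0.995% of all genes, and 0 higher and 0 lower for footprints, against 1.32% and 1.12%. In *eif2aΔ* it was 0 and 0 for mRNA (3.42% and 2.49%), and 0 and 1 for footprints (5.49% and 4.15%). In *stm1Δ* it was 2 and 0 for mRNA (15.2% and 4.54%), and 1 and 0 for footprints (10.3% and 3.94%). None of the 7 had its *stm1Δ* libraries apart from all 12 others, where 5.08% of all genes were higher and 1.62% lower for mRNA, and 2.62% higher and 1.25% lower for footprints.

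*VID24*, the receptor for proteins with an N-terminal proline, was the gene nearest to the threshold in *eif2aΔ*. RNA-Seq gave 47.2, 42.1, 56.9 and 38.2 CPM in *eif2aΔ* and 53.0, 53.2, 61.4 and 59.7 CPM in *wt*. The groups overlapped through *eif2aΔ* replicate 3. The log2 difference was −0.47 (SE 0.11, FDR 0.0852), which is short of the threshold. Ribo-Seq gave 23.9, 27.9, 30.5 and 20.8 CPM in *eif2aΔ* and 30.5, 35.4, 31.5 and 36.0 CPM in *wt*. Here the 4 *eif2aΔ* libraries were below the 4 of *wt*, although replicate 3 of *eif2aΔ* and replicate 1 of *wt* were nearly level. It was the only one of 7 GID genes with this separation, which 4.15% of the genes showed. The log2 difference in footprints was −0.45 (SE 0.15, FDR 0.162), and that in RO was 0.02 (SE 0.19). Within a batch, *eif2aΔ* had less *VID24* mRNA than *wt* in batch 3 (47.2 against 61.4 CPM) and batch 4 (42.1 against 59.7 CPM), and less than *tma46Δ* in batch 5 (56.9 against 74.9 CPM). The RNA-Seq call was made without *stm1Δ* replicate 2 (FDR 0.0209) or without *stm1Δ* replicate 4 (FDR 0.0488), and over all 16 replicates left out in turn the FDR ranged from 0.0209 to 0.351. Leaving out *stm1Δ* replicate 2 kept the difference at −0.47 and raised the genes called in *eif2aΔ* RNA-Seq to 172.

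In *stm1Δ* the level of *VID24* was higher than in *wt* in both assays, without passing the main test. RNA-Seq gave 81.0, 67.7, 81.9 and 95.8 CPM, all above the *wt* values. The log2 difference was 0.41 (SE 0.22, FDR 0.280), with a 95% interval of −0.01 to 0.84. Footprints were 37.8, 50.5, 44.4 and 63.8 CPM, likewise all above *wt*, with a log2 difference of 0.31 (SE 0.28, FDR 0.633). Without the batch term the RNA-Seq difference passed (0.40, SE 0.12, FDR 0.0491), and over the alternatives the FDR ranged from 1.76e-05 (ComBat-seq) to 0.348. Both of these fits called many more genes than the main test, and ComBat-seq called most of the genes past the filter. *VID24* and the RING gene *RMD5* were the 2 of 7 genes whose *stm1Δ* RNA-Seq libraries all lay above *wt*, which 15.2% of the genes did. In footprints it was *VID24* alone, against 10.3% of the genes.

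The direction of the GID genes in *stm1Δ* footprints turned with the batch term, and none of these genes was called with it. Of the 7 genes past the filter (6 subunits and the receptor *VID24*), 6 had a positive log2 difference in RNA-Seq, with a median of 0.56, compared with 50.5% of all genes and a median of 0.01. In Ribo-Seq all 7 were positive with a median of 0.41, compared with 51.2% of all genes and a median of 0.01. These fits rest on replicate 1. Without the batch term, 6 of 7 were positive for mRNA with a median of 0.24, but 6 of 7 were negative for footprints with a median of −0.04, and only *VID24* was positive (0.46, SE 0.14, FDR 0.0649). *VID30*, the scaffold gene, had the largest RNA-Seq value, 0.98 (SE 0.32, FDR 0.112), and *VID28* had 0.68 (SE 0.30, FDR 0.210). RNA-Seq gave 62.9, 32.97, 53.3 and 60.6 CPM for *VID30* in *stm1Δ* and 39.6, 36.8, 35.8 and 39.8 CPM in *wt*. Replicate 2 of *stm1Δ* was below all *wt* libraries and the other 3 were above them. For *VID28* the same replicate had 32.6 CPM, below the *wt* range of 39.9 to 45.2, and the others had 52.3 to 59.3 CPM. Without that replicate both genes passed in RNA-Seq (FDR 0.0144 for *VID30* and 0.0356 for *VID28*), with log2 differences still at 0.98 and 0.68. The same omission raised the genes called in *stm1Δ* RNA-Seq to 585. Over the replicates left out the FDR of *VID30* and *VID28* reached 0.225 and 0.333. For these genes, the fit without batch gave mRNA differences of 0.33 (SE 0.16, FDR 0.168) and 0.12 (SE 0.13, FDR 0.587).

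*GID7*, *GID8*, *RMD5* and *FYV10* were not called in *eif2aΔ* or *tma46Δ*. *GID7* footprints were 0.42 higher in *eif2aΔ* on the log2 scale (SE 0.18, FDR 0.293), with 25.2, 32.3, 35.6 and 20.8 CPM against 28.3, 27.2, 24.3 and 20.1 CPM in *wt*, and the groups overlapped. Its mRNA had a difference of 0.00 (SE 0.10), with a 95% interval of −0.19 to 0.20. In *eif2aΔ*, 6 of the 7 genes past the filter were above 0 in both assays, and the exception was *VID24*. Of all genes, 50.01% were above 0 for mRNA and 51.0% for footprints. The medians were 0.09 for mRNA and 0.21 for footprints, where all genes had 0.00. Without the batch term the footprint median was 0.04, and *VID28* was also below 0 (−0.27, SE 0.22, FDR 0.638). In *tma46Δ* the 7 genes had mRNA differences of −0.16 to 0.02 and footprint differences of −0.36 to 0.13. All 4 *tma46Δ* libraries of *GID8* were below those of *wt* in RNA-Seq (61.8 to 74.29 against 74.31 to 79.2 CPM), a separation that 0.995% of the genes showed in this direction, with a log2 difference of −0.16 (SE 0.09, FDR 0.999). *GID11* mRNA in *tma46Δ* had a difference of −0.48 (SE 0.18, FDR 1.0).

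*GID10*, a receptor known to be induced under stress, was near the limit of detection. It had 5, 6, 4 and 7 RNA-Seq reads in *wt* replicates 1 to 4, 8, 7, 6 and 3 in *tma46Δ*, 9, 11, 20 and 3 in *eif2aΔ* and 10, 10, 12 and 8 in *stm1Δ*. The highest count was in *eif2aΔ* replicate 3, and the strains overlapped, except that the CPM of *stm1Δ* were all above those of *wt*. Of the genes past the filter, 15.2% were separated from *wt* in this direction. *GID10* did not pass the filter, so that share does not cover it. The log2 difference in RNA-Seq was 1.35 (SE 0.51, FDR 0.260) in *eif2aΔ* and 2.81 (SE 1.07, FDR 0.168) in *stm1Δ*, while the ratio of mean CPM in *stm1Δ* over *wt* was 1.95. Footprints were 0 to 4 reads in a library. In *wt*, replicate 1 had 1 read and replicates 2 to 4 had 0, which allows up to 0.728, 0.910 and 0.825 CPM, respectively, when a count of 0 is taken to allow 3 reads. A difference in *GID10* footprints within these limits was therefore not detectable at this depth. These limits cover counting error only.

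Of 9 other genes of the pathway (*UBC8*, *UBP14*, *GID12*, *MOH1* and the substrates *FBP1*, *PCK1*, *MDH2*, *ICL1* and *ECM21*), 5 passed the filter. Only *MDH2* was called, in *eif2aΔ*. The cytosolic malate dehydrogenase *MDH2*, a gluconeogenic enzyme and GID substrate, fell in both assays, so that 1 of 9 genes was called lower for mRNA and for footprints (background of genes called lower 0.259% and 1.06%) and 0 higher (0.195% and 0.778%). RNA-Seq gave 115, 114, 111 and 117 CPM in *eif2aΔ* and 185, 179, 186 and 143 CPM in *wt*. Footprints were 108, 107, 131 and 113 CPM in *eif2aΔ* and 144, 179, 164 and 158 CPM in *wt*. The groups did not overlap in either assay. The log2 difference was −0.59 (SE 0.09, FDR 0.0142) for mRNA and −0.55 (SE 0.09, FDR 0.00875) for footprints, and RO differed by 0.05 (SE 0.13, FDR 1.00). Within batches 3 and 4, *eif2aΔ* had 115 against 186 and 114 against 143 CPM of *wt*. The RNA-Seq call was lost without *wt* replicate 1 (FDR 0.0514), 2 (0.0557) or 3 (0.0734), *tma46Δ* replicate 1 (0.0502) or 2 (0.0549), or *eif2aΔ* replicate 1 (0.0628), and the Ribo-Seq call without *wt* replicate 3 (0.0609) or 4 (0.148) or *eif2aΔ* replicate 2 (0.144), while the log2 difference stayed between −0.71 and −0.50.

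The other gluconeogenic genes gave no call in these glucose cultures. In *wt*, mean RNA-Seq levels were 0.592 CPM for *FBP1*, 8.80 CPM for *PCK1* and 29.0 CPM for *ICL1*, compared with 173 CPM for *MDH2*. In *stm1Δ* 0 of 9 pathway genes were called in each assay, against 0.0649% (RNA-Seq) and 0.411% (Ribo-Seq) of the genes past the filter. In the fit without the filter, used for the genes below it, the shares were 1.37% and 0.256%. *ECM21*, which encodes an arrestin-related adaptor, had all 4 *stm1Δ* RNA-Seq libraries above the other 12, with a ratio to *wt* of 1.33. Of the genes past the filter, 5.08% did so. *MOH1* had the same separation, with a ratio of 2.54 and 16 to 21 reads in *stm1Δ*. It did not pass the filter, so that share does not cover it. *ECM21* had a log2 difference of 0.46 (SE 0.17, FDR 0.156), and the E2 gene *UBC8* had 0.50 (SE 0.26, FDR 0.275).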

How the data were processed

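The genes and gene lists were chosen with earlier results of these data known. Adapters were trimmed by the authors (cutadapt 2.10), duplicates were dropped from the Ribo-Seq data only, rRNA was filtered out, and STAR 2.7.9a aligned to R64 and counted. The deposited values are raw sense-strand read counts for 7036 genes. Genes were kept that had 10 CPM in no fewer than 4 libraries of each assay. Here, edgeR 4.0.16 (R 4.3.3) was used with TMM, glmQLFit and glmQLFTest, batch and strain as terms, all 16 libraries of an assay in one fit, and the strain by assay interaction over 32 libraries for RO. FDR is the Benjamini-Hochberg value over all genes tested, with a threshold of 0.05. The study used ComBat-seq in place of the batch term, which was run as an alternative (sva 3.50.0), as were DESeq2 1.42.0, RLE, no filter, no batch term, a replicate block and leaving out each replicate. The tests were checked on simulated data. Intervals of 95% come from the SE under a normal error. Replicate libraries differed by more than sampling noise (chi-square per degree of freedom at least 2.59). All 9 GID genes are named, pathway genes where called or needed to read a count, the neighbours of *STM1*, and the 5 genes ranked after *GID11* by pattern.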

Additional observations from a re-analysis of the deposited data

Results flagged for a closer look

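Of 72 groups of 4 libraries (9 genes, 4 strains, both assays), 3 held a library that stood apart in CPM by Dixon's test, which chance gives in about 1 group of 20. *RMD5* RNA-Seq in *stm1Δ* was 22.5 CPM in replicate 1 (batch 6) and 17.5 to 18.1 CPM in the other 3, with a gap ratio of 0.883. *FYV10* RNA-Seq in *wt* was 13.8 CPM in replicate 1 and 15.7 to 15.9 CPM in the others, with a gap ratio of 0.867. *GID10* Ribo-Seq in *wt* had 1 read in replicate 1 and 0 reads in the others, a gap ratio of 1.0 that rests on that read.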

How the results depend on the processing

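The number of all genes called moved with the handling of batch. ComBat-seq gave 7, 14 and 1 genes (RNA-Seq, Ribo-Seq, RO) in *tma46Δ*, 959, 821 and 62 in *eif2aΔ* and 3151, 2561 and 2137 in *stm1Δ*, compared with 1, 1 and 0, 21, 85 and 2, and 3, 19 and 0 in the main test. Under ComBat-seq 2 GID genes were called in *eif2aΔ* RNA-Seq (*VID24*, *GID10*), 2 in Ribo-Seq (*VID24*, *GID7*), and 7, 5 and 1 in *stm1Δ* (*GID10*, *VID24*, *VID30*, *GID8*, *RMD5*, *FYV10* and *VID28* in RNA-Seq, *VID24*, *VID30*, *GID8*, *VID28* and *GID7* in Ribo-Seq, *GID7* in RO). Without the batch term *stm1Δ* had 447, 220 and 3 genes and 1 GID gene, *VID24* in RNA-Seq. Without the filter RNA-Seq had 57 genes in *eif2aΔ* and 92 in *stm1Δ*. DESeq2 gave 2 genes in *tma46Δ* Ribo-Seq, 63 in *eif2aΔ* RNA-Seq, and 236 and 38 in *stm1Δ* RNA-Seq and Ribo-Seq.

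With the replicate block in place of batch, *eif2aΔ* Ribo-Seq had 42 genes and *stm1Δ* had 251, 157 and 3, with *VID24* called in *stm1Δ* RNA-Seq (FDR 0.0492), and no other GID gene changed its call. The numbers mark a shared batch only in *wt* and *tma46Δ* replicates 1 to 3, where deviations correlated at 0.32 to 0.67 (6 pairs). Elsewhere same-numbered libraries gave −0.53 to 0.59 (42 pairs), a range that overlaps that of the shared-batch pairs. The labels give those samples only a number in common, and the correlations do not decide whether they share more.

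Leaving out each replicate gave 1 to 1, 1 to 2 and 0 to 0 genes in *tma46Δ*, 4 to 172, 7 to 255 and 1 to 5 in *eif2aΔ* and 1 to 585, 1 to 189 and 0 to 1 in *stm1Δ*. The highest counts of *eif2aΔ* and *stm1Δ* came without *stm1Δ* replicate 2. The number of GID genes called was 0 to 1 for *eif2aΔ* mRNA, 0 to 2 for *stm1Δ* mRNA and 0 elsewhere. *stm1Δ* could not be fitted with batch without its replicate 1 or *eif2aΔ* replicate 4. The ratio of *GID11* in *stm1Δ* over *wt* lay between 5.43 and 6.79 for mRNA and between 0.512 and 0.639 for footprints, and TMM scaling gave 5.56 and 0.546. Of 495 log2 differences under the alternatives, 47 changed sign, and 95 of 1290 did so when a replicate was left out, none of them called in either fit. The cause of these changes was not tested.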
